A study of Mus musculus with 20 samples.

Results

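The comparison described here is the tissue by genotype difference of the intervertebral disc: the difference between ank and WT mice in the annulus fibrosus (AF) set against that in the nucleus pulposus (NP) of the same mice. For each mouse and gene the NP value was subtracted from the AF value, and this AF minus NP value was compared between 5 ank mice and 5 WT mice. The difference between the genotypes equals the ank minus WT difference in the AF less that in the NP, and it is called the tissue difference below. Of 19505 genes measured, 3877 were above background in at least 5 of the 10 arrays of each tissue and could be compared. The study called a gene at p under 0.05 before adjustment with a change of 1.75-fold or more (0.81 on the log2 scale). By that rule 191 of the 3877 genes (4.93%) had a tissue difference, and these are the genes described. None passed Benjamini-Hochberg adjustment in limma, where the smallest adjusted p of any gene was 0.80. Before adjustment 191 genes had an unadjusted p under 0.05 where 193.85 would be counted if p-values were spread evenly.

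The mice were ank/ank mutants, homozygous for a loss of function allele of the progressive ankylosis gene in the whole animal, and WT littermates from heterozygous parents of a C3FeB6-derived line. All were 13 weeks old, and each genotype held 2 males and 3 females. AF and NP were dissected from the discs of each mouse, pooled over that mouse's discs and hybridised to Clariom S arrays, 1 per tissue and mouse, which gave 20 arrays. The labels name caudal and lumbar discs and the published methods caudal discs. All values are log2 signals. WT replicates are numbered 32, 33, 53, 55 and 59 and ank replicates 31, 34, 39, 41 and 48, and values of single mice are listed in these orders.

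ANK is a membrane protein that moves ATP, a source of pyrophosphate, out of the cell, and pyrophosphate holds back the growth of hydroxyapatite crystals. Mice without working ANK lay down mineral in joints and discs. The AF is a lamellar fibrocartilage of fibroblast-like cells, whereas NP cells descend from the notochord, live without blood vessels at low oxygen and rely on glycolysis. Ank itself was not analysed here.

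Most markers chosen beforehand were higher in the tissue they mark. Krt19, a keratin of NP cells, averaged 17.93 in WT NP (SD 0.22, n = 5) against 10.21 in WT AF (SD 3.46, n = 5). Col1a1, the main collagen chain of the AF, averaged 14.02 in WT AF (SD 3.46, n = 5) against 9.70 in WT NP (SD 1.6, n = 5). Krt8 and Cd24a were also higher in WT NP, and Tnmd in WT AF. The AF marker Fmod was not, with 19.14 in WT NP (SD 0.21, n = 5) against 18.20 in WT AF (SD 1.05, n = 5). The NP marker Car3 averaged 19.81 in WT NP and 19.88 in WT AF. These lie close to 19.93, the highest value of the table, so Car3 could not show whether the tissues differ. The tissues were not equally well measured: the control AUC, the chance of a positive control outranking a negative one, lay between 0.59 and 0.763 for AF arrays and between 0.71 and 0.789 for NP arrays. WT replicate 33 stood apart in the AF, where 29 skeletal muscle genes averaged 12.12 against 5.94 to 6.62 in the other WT mice and 5.77 to 6.93 in ank. Macrophage and osteoclast genes (9.28), adipocyte genes (8.12) and endothelium genes (7.75) were also highest on that AF array. On the other AF arrays they reached at most 6.27, 6.68 and 5.60. Red blood cell, neutrophil and marrow, epidermis and Schwann cell genes were not highest there. Poly-A spike-in controls were seen on both arrays of WT 32, WT 33, ank 31 and ank 34, on neither array of WT 55, WT 59, ank 41 and ank 48, and on the NP array alone of WT 53 and ank 39. Results are given within the first 2 of these sets, and WT 53 against ank 39 allows no test.

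Many of the 191 genes differed between the genotypes in opposite directions in AF and NP, by the group means. In 184 (4.75% of the genes tested) the AF minus NP value was higher in ank, and in 7 (0.181%) it was lower. A gene was said to run in opposite directions when the ank minus WT differences in AF and NP had opposite signs and were each at least 0.5, and 78 of the 191 did. In 74 of these the gene was higher in ank AF and lower in ank NP, and in 4 (Smpd3, Olfr1232, Recql and Aggf1) lower in ank AF and higher in ank NP. Among all 3877 genes, called or not, 205 (5.29%) had the first pattern and 7 (0.181%) the second. The 191 were selected by the AF difference less the NP difference. That selection by itself favours opposite signs, so the 78 are a description and not a test. Of the other called genes, 87 with a higher AF minus NP value and 1 with a lower one differed by at least 0.5 in the AF alone, and 17 and 2 did so in the NP alone. In 5 genes both tissues moved the same way by unequal amounts, and in Kmt2c neither reached 0.5. Across the 3877 genes the AF and NP differences were nearly unrelated, with a Pearson r of 0.154 and a Spearman rho of 0.041, given as a description, as genes are not independent replicates.

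**Figure D1:**
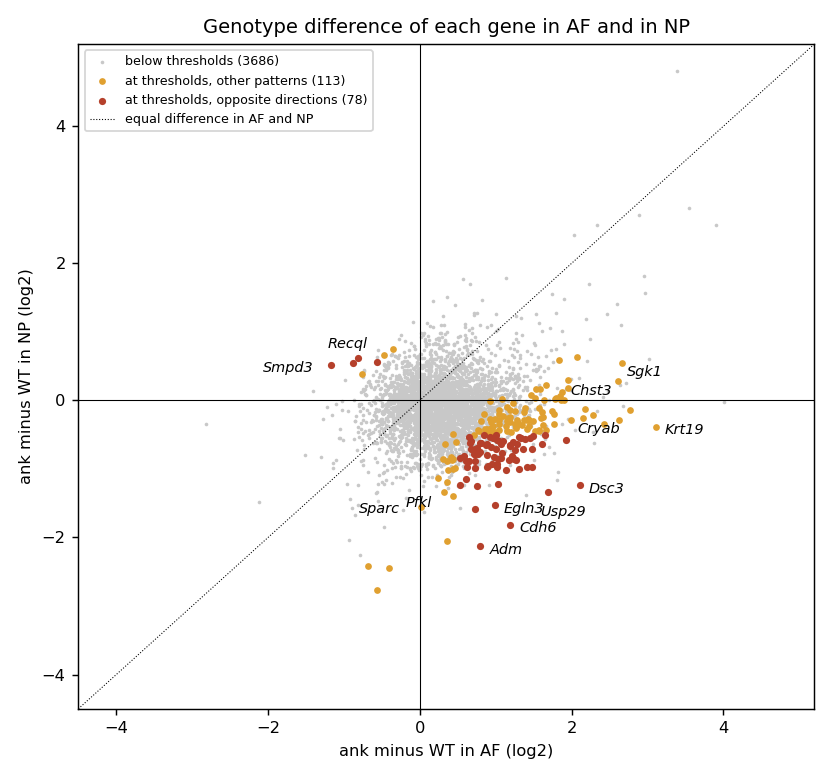
Ank minus WT difference of each of the 3877 genes in the AF (x axis, log2) and in the NP (y axis, log2), with the genes at the unadjusted thresholds coloured. Of the 191 coloured genes, 74 lie at lower right, higher in ank AF and lower in ank NP by at least 0.5, and 4 lie at upper left.

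Part of this lean was shared by all genes. The median tissue difference of the 3877 genes was 0.42, and the median ank minus WT difference was 0.30 in the AF and −0.11 in the NP. When every array was centred on its median this fell to 0.02 and 161 genes (4.15%) met the thresholds, 105 higher and 56 lower, which is 65.2% higher in place of 96.3%. Quantile normalization within each tissue gave 82 higher and 38 lower. With the AF minus NP difference in control AUC as a covariate, the median was 0.16. That fit gave 162 higher and 64 lower, which is 71.7% higher. The fits on deposited and on centred values share 111 genes. All 78 opposite genes kept opposite signs in AF and NP after centring and after quantile normalization, but only 41 and 39 of them still reached 0.5 in both tissues. Centring moves the difference of every gene in a tissue by the same amount, here less than 0.5. For centring the kept signs were therefore fixed in advance and are no check. The median AF minus NP value of a mouse averaged −1.52 over the WT mice (SD 0.57, n = 5) and −1.06 over the ank mice (SD 0.46, n = 5), a difference of 0.47 (exact two-sided permutation test, p = 0.21, smallest possible p 0.0079).

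The counts moved with single mice. Without WT replicate 33 the thresholds were met by 526 genes and without ank replicate 31, the AF array with the lowest control AUC, by 520. Without ank replicate 48 they were met by 63, without ank replicate 34 by 82, without WT replicate 53 by 87, without ank replicate 41 by 101, without WT replicate 32 by 129 and without ank replicate 39 by 282. Without both WT 33 and ank 31 the count was 1091. Within the spike-in set seen on both arrays 25 genes met the thresholds and within the set seen on neither 823, and the median tissue difference was 0.00 and 0.73. Of the 191 genes, 46 had a group of tissue and genotype with fewer than 3 arrays above background, so that part of their difference is against a background value. Of the 191, 40 met the thresholds whichever mouse was left out, 39 of them higher in ank and 1, Recql, lower.

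The genes with the clearest tissue difference ran from sugar metabolism to cell adhesion and RNA processing. Pfkl, the liver-type subunit of phosphofructokinase, which commits sugar to glycolysis, had the smallest p. Its NP level was 11.44, 11.04, 12.22, 10.77 and 10.85 in WT and 9.23, 11.12, 10.52, 9.42 and 9.07 in ank. Its AF level was 8.94, 7.98, 8.29, 7.72 and 8.0 in WT and 7.70, 9.01, 8.86, 8.79 and 8.72 in ank. The NP thus carried more Pfkl than the AF in every mouse, and the gap was smaller in each ank mouse than in any WT mouse. AF minus NP averaged −3.08 ± 0.53 in WT and −1.25 ± 0.73 in ank (SD, n = 5), a tissue difference of 1.83 (SE 0.50). The ank minus WT difference was 0.43 in the AF and −1.39 in the NP. AF minus NP values of the genotypes did not overlap in 17 genes (0.438%), 15 with ank above WT and 2 below, and 14 of the 17 were among the 191. With 5 mice a group, labels assigned at random separate a gene fully with probability 0.0079, which is above the share found. Lack of overlap is therefore given as a description, and the 191 were selected on the same values.

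Tanc2, a scaffold protein of the postsynaptic density, and Nova1, a neuronal splicing factor, also showed no overlap. Tanc2 AF minus NP was −2.31, −1.81, −3.21, −3.02 and −2.29 in WT and −0.76, 0.14, −1.62, −0.92 and −0.88 in ank. Its tissue difference was 1.72 (SE 0.49), with 1.01 in the AF and −0.71 in the NP. Both tissues contributed. Nova1 AF minus NP was −1.44, −4.41, −2.55, −1.79 and −3.99 in WT and −1.14, −0.15, −1.13, −0.87 and −0.13 in ank. Its tissue difference was 2.15 (SE 0.62), with 1.14 in the AF and −1.01 in the NP. Nova1 was above background in 2 of the 5 WT AF arrays, so its WT AF mean is in part a background value.

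Luc7l2, a splicing factor of the U1 snRNP, and Sf3b6, a subunit of the U2 snRNP, were in the same position. Luc7l2 AF minus NP was −2.98 to −1.50 in WT mice and −1.50 to 0.41 in ank mice, so that the nearest mice of the genotypes all but met, with a tissue difference of 1.63 (SE 0.51). Sf3b6 had a tissue difference of 1.39 and was chosen after its values were seen, as were Rnpc3 (1.34), a protein of the minor spliceosome, and Rnh1 (1.36), the ribonuclease inhibitor. Eif3m, a subunit of the translation initiation factor eIF3, differed in the AF (1.47) and hardly in the NP (0.07), and its AF minus NP values did not overlap either. Its tissue difference of 1.39 fell to 0.99 after centring, where it missed the thresholds.

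Mtdh, Dnajb4 and Sbds were led by the AF. Sbds, a factor in the maturation of the large ribosomal subunit, measured 10.10, 8.63, 8.44, 9.73 and 9.18 in WT AF and 8.48, 11.02, 11.45, 12.21 and 11.76 in ank AF, so that all ank mice but replicate 31 were above every WT mouse. In the NP it measured 12.77 to 14.18 in WT and 12.07 to 14.10 in ank, and the groups overlapped. The tissue difference was 1.97 (SE 0.60), of which 1.77 came from the AF. Mtdh, which encodes the membrane protein metadherin, differed by 1.76 in the AF and −0.34 in the NP (tissue difference 2.10, SE 0.63). Dnajb4, a co-chaperone of Hsp70, differed by 1.51 and −0.45 (tissue difference 1.96, SE 0.59). In each of these 3 genes the AF minus NP value of 3 or more ank mice was above every WT mouse.

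**Figure D2:**
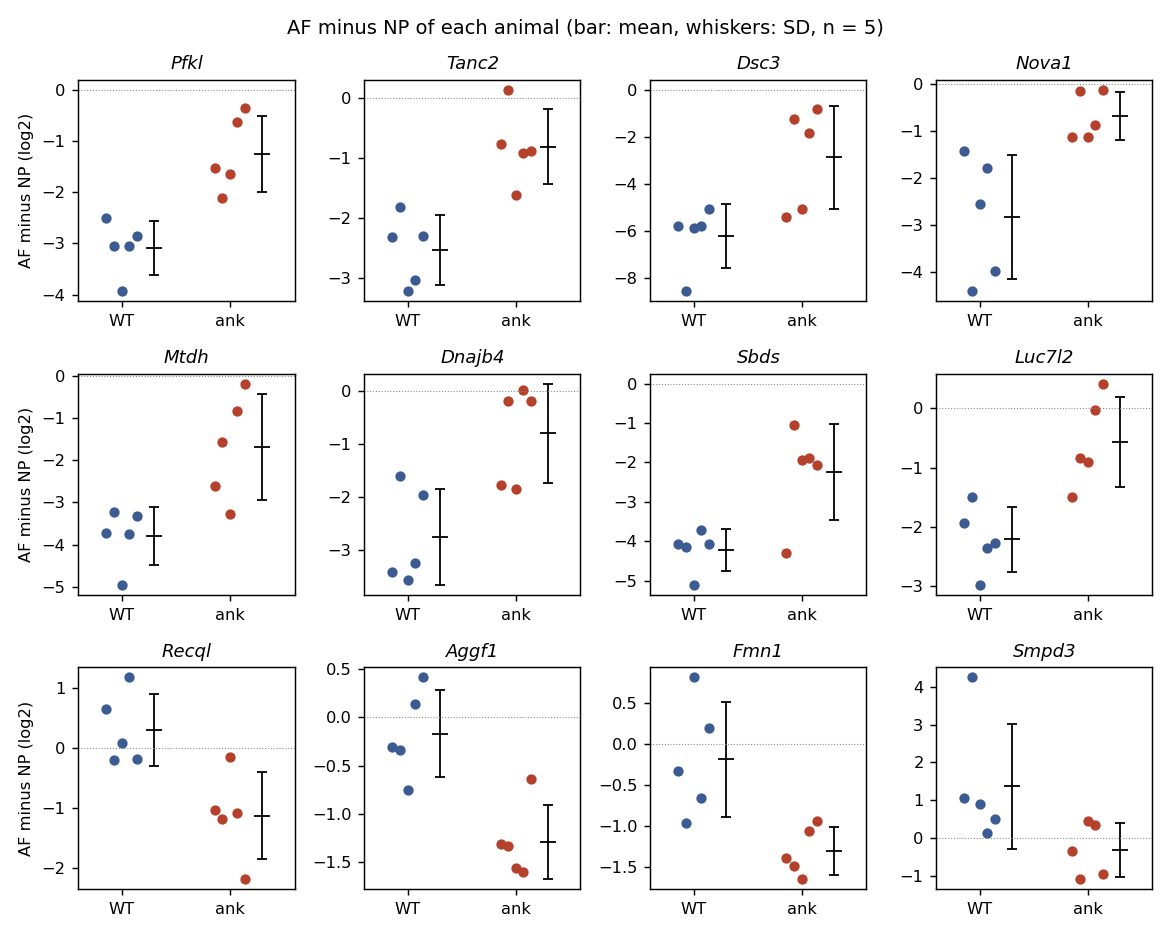
AF minus NP (y axis, log2) of each mouse for the 8 genes of smallest p with a higher value in ank and 4 of the 7 with a lower one. Points are mice, bars the mean and whiskers the SD (n = 5), and Pfkl, Tanc2, Nova1 and Luc7l2 show no overlap between the genotypes.

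Oxygen sensing and glycolysis genes leaned one way as a list. HIF-1, a dimer of Hif1a and Arnt, is destroyed by way of the prolyl hydroxylases of the Egln family when oxygen is present, and at low oxygen it drives glycolytic enzymes, Adm and Vegfa. Of 34 list members tested, 8 met the thresholds (Pfkl, Adm, Ero1a, P4ha2, Egln3, Pgam1, Pfkp and Hk1), all with a higher AF minus NP value in ank, against 4.75% of all genes tested. The median tissue difference of the list was 1.04 against 0.42 over all genes, and 31 of 34 members were above 0. After centring the medians were 0.64 and 0.02, with 7 members at the thresholds. Centring moves the tissue difference of every gene by the same amount, so the centred medians are no second check of the list against all genes. The group means of 26 members were higher in ank AF and lower in ank NP, against 44.5% of all genes. Of the 34, 5 are genes that the study itself singled out on these arrays, so they are not independent evidence of the list's direction; without them 5 of 29 met the thresholds and the median was 0.98. The median of the list was 0.39 within the spike-in set seen on both arrays and 1.22 within the set seen on neither. The list lies high in the NP, with a median WT AF minus NP of −2.87 against −1.48 over all genes. When all genes were split in 3 equal groups by mean AF minus NP, the group highest in the NP had a median tissue difference of 0.84. In that group 9.52% of genes met the thresholds. Whether the list exceeds genes of like tissue level was not tested.

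**Figure D3:**
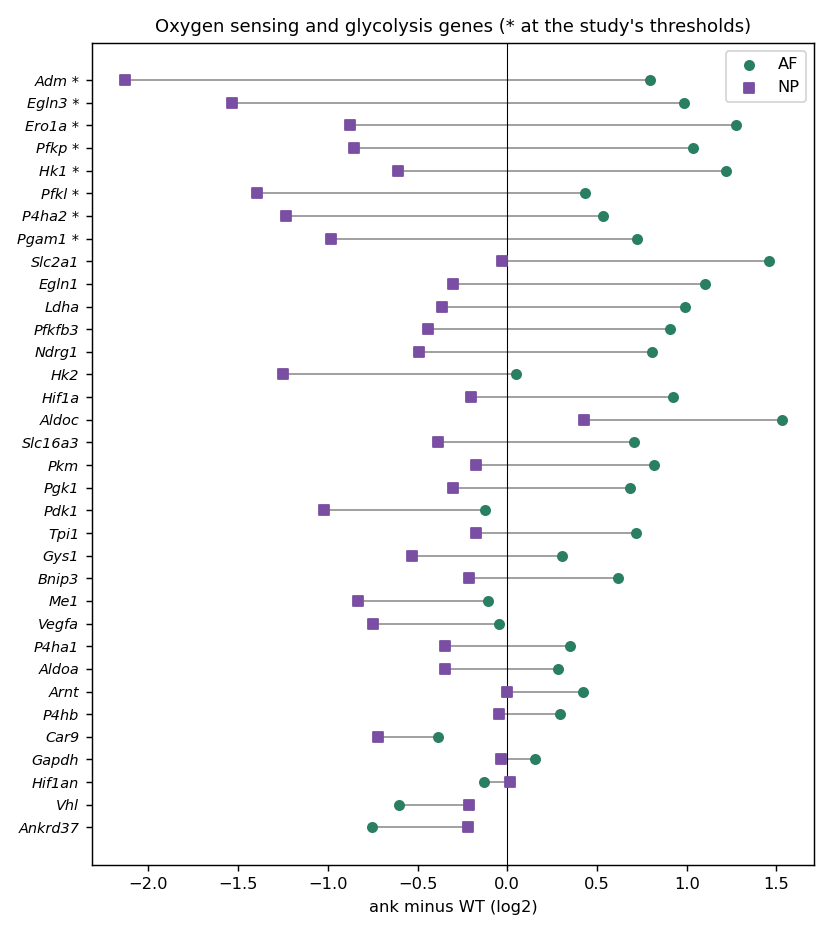
Ank minus WT difference (x axis, log2) in the AF (circles) and the NP (squares) of the 34 oxygen sensing and glycolysis genes tested, ordered by the tissue difference, with stars at the 8 genes meeting the unadjusted thresholds. In 26 of 34 genes the AF difference lies above 0 and the NP difference below 0.

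Adm, which encodes the vasodilator peptide adrenomedullin and is a classic HIF target, had the largest tissue difference of the list. In the NP it measured 12.63, 11.61, 13.07, 13.38 and 12.33 in WT and 10.91, 11.49, 10.65, 9.24 and 10.06 in ank, and every ank mouse lay below every WT mouse. In the AF it measured 7.64, 4.99, 6.68, 8.06 and 9.83 in WT and 6.57, 9.49, 7.01, 8.0 and 10.12 in ank, which overlap. The difference was 0.80 in the AF and −2.13 in the NP, and the tissue difference 2.93 (SE 0.91). It stayed between 2.36 and 3.59 whichever mouse was left out. In the AF, Adm was above background in 2 of 5 WT and 3 of 5 ank arrays, so the AF part is poorly measured and the NP part is not.

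Egln3, the prolyl hydroxylase PHD3, is itself induced by HIF. It measured 15.70, 14.95, 15.66, 15.38 and 14.53 in WT NP and 15.80, 13.65, 13.41, 13.10 and 12.60 in ank NP, so that ank replicate 31 was the highest of all and the other ank mice were below every WT mouse. In the AF it measured 11.0007, 6.86, 9.52, 10.03 and 9.52 in WT and 8.51, 10.93, 10.04, 10.67 and 11.72 in ank. The tissue difference was 2.52 (SE 1.02), with 0.99 in the AF and −1.53 in the NP. Its AF part depended on scaling, as quantile normalization left 0.39. The call was lost without WT 33 (1.96), ank 34 (2.36), ank 41 (2.29) or ank 48 (1.90).

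P4ha2, a subunit of the hydroxylase that modifies collagen prolines, and Ero1a, an oxidase of protein folding in the endoplasmic reticulum, followed the same pattern. P4ha2 measured 10.91, 10.85, 12.02, 9.97 and 10.65 in WT NP and 9.70, 9.16, 9.73, 10.21 and 9.45 in ank NP, where only ank 41 lay above the lowest WT mouse. Its tissue difference was 1.76 (SE 0.68), with 0.53 in the AF, and the call was lost without WT 53 (1.23), ank 34 (1.56) or ank 48 (1.53). Ero1a differed by 1.27 in the AF and −0.88 in the NP. Its tissue difference of 2.15 (SE 0.67) ran from 1.78 to 2.5 over the leave-outs and met the thresholds in each.

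The enzymes of glycolysis, taken as a subset after the values were seen, had 12 members tested, all with a tissue difference above 0 and 11 of them above 0 in the AF and below 0 in the NP. Beside Pfkl, the thresholds were met by Hk1, hexokinase 1 (1.83, SE 0.83), Pfkp, the platelet-type phosphofructokinase subunit (1.89, SE 0.83), and Pgam1, phosphoglycerate mutase (1.70, SE 0.71). Pgam1 lost the call without WT 53, ank 34 or ank 48, with values down to 1.04. Hk1 lost it without WT 53, WT 59, ank 34, ank 41 or ank 48, with values down to 1.31, and Pfkp in 7 of the 10 leave-outs, with values down to 1.36, and after centring. Hk2, hexokinase 2, differed in the NP by −1.25 and in the AF by 0.05, and just missed the threshold. Ldha, lactate dehydrogenase A, had 0.99 in the AF and −0.36 in the NP (tissue difference 1.35, SE 0.85), and Gapdh had 0.16 and −0.04 (0.19, SE 0.54). Hif1a itself had 0.92 and −0.20 (1.13, SE 0.75), and the members below 0 were Ankrd37 (−0.53), Vhl (−0.39) and Hif1an (−0.15). Hk2, Ldha, Gapdh, Hif1a, Ankrd37, Vhl and Hif1an did not pass the test.

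The stretch of 250 bases before the RefSeq start of each gene was searched for ACGTG on both strands, a search chosen after the values were seen. These letters are the core of the hypoxia response element that HIF binds, and they also lie within CACGTG, the E-box that clock factors bind, which the search did not set apart. Of 33 list members with a promoter sequence 21 held the letters, as did 16.6% of all 32851 promoters and 26.5% of the 3169 tested genes with one. Of the 8 members at the thresholds 4 held them, and their sequences are shown because these are the called members in which the element's letters lie near the start. They are printed 5′ to 3′ from RefSeq on GRCm38.p6, with the match in capitals (CACGT where it lies on the other strand).
Egln3 promoter, chr12:54203875-54204124, minus strand: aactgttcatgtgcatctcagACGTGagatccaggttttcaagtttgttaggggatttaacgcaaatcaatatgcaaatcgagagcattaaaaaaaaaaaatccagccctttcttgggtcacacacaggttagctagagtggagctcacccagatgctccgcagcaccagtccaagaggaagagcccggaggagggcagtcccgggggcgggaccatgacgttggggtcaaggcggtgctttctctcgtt
Ero1a promoter, chr14:45318573-45318822, minus strand: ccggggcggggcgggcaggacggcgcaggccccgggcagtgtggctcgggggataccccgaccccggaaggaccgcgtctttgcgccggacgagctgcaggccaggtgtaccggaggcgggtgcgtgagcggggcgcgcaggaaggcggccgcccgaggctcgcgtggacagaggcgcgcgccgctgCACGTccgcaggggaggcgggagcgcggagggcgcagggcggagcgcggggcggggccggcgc
P4ha2 promoter, chr11:54100674-54100923, plus strand: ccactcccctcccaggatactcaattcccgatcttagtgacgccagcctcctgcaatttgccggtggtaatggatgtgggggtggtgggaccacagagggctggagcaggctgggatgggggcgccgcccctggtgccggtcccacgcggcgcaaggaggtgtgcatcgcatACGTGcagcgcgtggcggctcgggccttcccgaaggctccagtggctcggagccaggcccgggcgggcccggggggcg
Pgam1 promoter, chr19:41911621-41911870, plus strand: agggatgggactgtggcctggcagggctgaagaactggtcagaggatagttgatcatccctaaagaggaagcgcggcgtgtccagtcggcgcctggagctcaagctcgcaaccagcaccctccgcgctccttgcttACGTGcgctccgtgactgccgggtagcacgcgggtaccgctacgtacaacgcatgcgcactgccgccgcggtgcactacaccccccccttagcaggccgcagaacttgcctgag
Each of the 4 holds 1 match, none of them within CACGTG, and a match is a run of letters and was not tested as a binding site.

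Desmosome and NP marker genes had the highest medians among the lists with at least 5 genes tested, both led by the AF. Dsc3, the desmosomal cadherin desmocollin 3, measured 8.86, 6.03, 9.52, 8.41 and 9.09 in WT AF and 8.53, 11.08, 9.11, 12.22 and 11.49 in ank AF. In the NP it measured 14.64, 14.59, 15.38, 14.22 and 14.17 in WT and 13.95, 12.31, 14.17, 14.07 and 12.30 in ank, where ank 34 and ank 48 were low and ank 39 lay just above the lowest WT mouse. The tissue difference was 3.35 (SE 0.96), with 2.11 in the AF and −1.24 in the NP, and it stayed at the thresholds without any 1 mouse (2.76 to 3.98). Of 5 desmosome genes tested, Dsc3 and Pkp1 (plakophilin 1, 1.97, SE 0.91) met the thresholds, against 4.75% of all genes tested, and the median was 2.23. Both lists lie high in the NP, with a median WT AF minus NP of −5.63 for desmosome and −3.46 for NP marker genes, against −1.48 over all genes. Whether they exceed genes of like tissue level was not tested. Pkp1 lost the call in 6 of 10 leave-outs, with values down to 1.38, and after centring.

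Krt19 had a tissue difference of 3.49 (SE 1.56), most of it from the AF, where ank was 3.11 higher. Its AF level was 10.46, 4.24, 11.26, 12.41 and 12.68 in WT and 9.37, 14.42, 11.32, 15.27 and 16.20 in ank, so that ank 34, 41 and 48 were high. It met the thresholds in 4 of 10 leave-outs, with values from 2.09 to 4.56, and missed them after centring. Of 10 NP and notochord genes tested Krt19 alone met the thresholds, against 4.75% of all genes tested, and the median was 1.27 (0.87 after centring).

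The level of these NP markers in the AF differed between mice. The 20 genes of the NP and notochord list averaged 8.83, 7.93, 9.39, 9.33 and 9.72 in WT AF and 8.15, 10.05, 9.25, 10.44 and 10.51 in ank AF, while in the NP they spanned 10.98 to 11.37 in WT and 11.09 to 11.18 in ank. The ank mice with most NP marker signal in the AF were 34, 41 and 48, and leaving out any of these mice gave 63 to 101 called genes. Leaving out WT 53, with an NP marker mean of 9.39 in the AF, gave 87. Whether the calls follow the marker signal was not tested. Of the 184 genes higher in ank, 181 (98.4%) had a higher mean in WT NP than in WT AF, against 88.7% of all genes. The WT AF minus NP value is a term of the tissue difference by which these genes were selected. The selection by itself favours a low WT value, so nothing is read from this excess. The genes were also split in 3 equal groups by their mean AF minus NP value, after the values were seen. The group highest in the NP held 123 of the 184, the middle group 53 and the group highest in the AF 8. Their median tissue differences were 0.84, 0.43 and −0.03. The part of NP tissue in the AF samples in these results was not tested. In the NP, where opposite genes were lower in ank, the 26 AF and tendon markers averaged 6.85 to 7.82 in WT and 6.88 to 7.28 in ank. Only 6 of the 26 were above background in at least 5 NP arrays. These means are thus largely background values and cannot show whether the part of AF tissue in the NP samples differed. In bulk tissue, fewer cells of a type and less RNA per cell cannot be told apart.

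**Figure D4:**
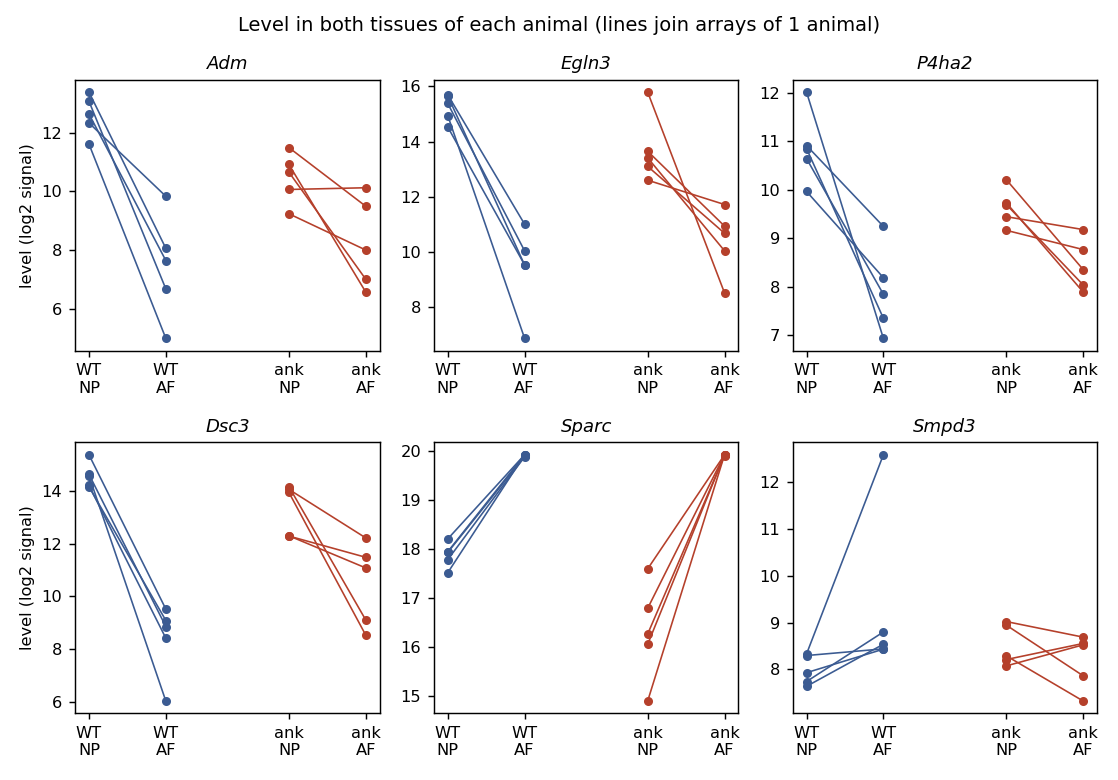
Level (y axis, log2 signal) of 6 genes in the NP and AF of each mouse, with a line joining the arrays of 1 mouse. Adm in ank NP lies below WT NP in every mouse, Sparc in the AF is at the upper end of the scale on all 10 arrays, and Smpd3 is high on the AF array of WT 33 alone.

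The other large opposite differences, Usp29, Cdh6 and Cryab, had a like shape. Usp29, a deubiquitinating enzyme, differed by 1.68 in the AF and −1.34 in the NP (3.02, SE 1.06), and was above background in 2 of 5 WT AF arrays. Cdh6, a classical cadherin, differed by 1.19 and −1.82 (3.01, SE 1.12). In both genes the WT AF array of replicate 33 was the lowest of the 10 AF arrays, and the call held in all leave-outs (from 2.23 and 2.19). Cryab, the small heat shock protein alpha B-crystallin, differed by 1.93 and −0.58 (2.51, SE 0.97). Its ank AF values spread from 7.43 to 15.70, and the call was lost without WT 32 (2.20), ank 41 (2.26) or ank 48 (1.73) and after quantile normalization (1.61).

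Matrix and mineral genes differed from one another. Sparc, the collagen-binding glycoprotein osteonectin, measured 18.21, 17.52, 17.79, 17.95 and 17.93 in WT NP and 17.60, 16.06, 16.27, 16.79 and 14.90 in ank NP. All ank mice but replicate 31 were below every WT mouse. In the AF it lay between 19.89 and 19.93 on all 10 arrays, within 0.1 of the highest value of the table, so the AF difference of 0.01 is a ceiling and was not measured. The tissue difference of 1.57 (SE 0.53) therefore rests on the NP difference of −1.56. Sparc was the only 1 of the 191 genes at this ceiling.

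Hapln1, the link protein that ties aggrecan to hyaluronan, had −1.34 in the NP and 0.32 in the AF (1.67, SE 0.72), and Sox6, a transcription factor of cartilage and of the notochord, had −0.65 and 1.18 (1.84, SE 0.82). They were the 2 of 9 cartilage matrix genes at the thresholds, against 4.75% of all genes tested. They held in 3 and 4 of 10 leave-outs, with values down to 1.14 and 1.46, and centring ended the call of Sox6. Cytl1, a cytokine-like protein of cartilage named after its values were seen, went the other way (−2.47, SE 1.20) without passing the test, and met the thresholds after centring (−2.87). Chst3, which sulfates chondroitin, differed in the AF alone (1.86, against −0.00 in the NP) and held in all leave-outs. Chst3 was above background in 2 of 5 WT AF and 4 of 5 ank AF arrays, so its WT AF mean is in part a background value. With the xylose kinase Fam20b (1.24) it made 2 of 12 chondroitin sulfate genes at the thresholds, against 4.75% of all genes tested. Fam20b held in 4 of 10 leave-outs, down to 0.91. None of 10 collagen genes met the thresholds, and their median was −0.10 (−0.50 after centring), below that of all genes. This list lies high in the AF, with a median WT AF minus NP of 1.06 against −1.48 over all genes. When all genes were split in 3 equal groups by mean AF minus NP, the group highest in the AF had a median of −0.03. In that group 1.08% of genes met the thresholds, so nothing particular to collagens is read from the list. Timp3, an inhibitor of matrix proteases, had 2.43 in the AF and −0.34 in the NP, but its tissue difference of 2.77 (SE 1.24) was −0.03 within the spike-in set seen on both arrays, and it held in 3 of 10 leave-outs, down to 1.69.

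Smpd3 and Galnt3, the 2 called genes of 7 that handle pyrophosphate, phosphate or mineral, went in opposite directions. Over all genes tested 4.93% met the thresholds. Smpd3 encodes neutral sphingomyelinase 2, needed for mineral in bone and cartilage. In the AF it measured 8.80, 12.58, 8.54, 8.44 and 8.43 in WT and 8.69, 7.86, 8.52, 8.55 and 7.32 in ank, and in the NP 7.64 to 8.33 in WT and 8.08 to 9.02 in ank. Only WT 33, the mouse that stood apart in its AF by muscle and other markers, was high. The tissue difference of −1.69 (SE 0.73) was −0.97 without that mouse, still past the fold threshold but no longer past that on p, and the call was also lost without ank 31 (−1.68), ank 34 (−1.50) or ank 48 (−1.53). Osteoblast genes (17 of them) averaged 11.21 in the AF of WT 33 and at most 7.81 in every ank AF array, and the part of this tissue in the result was not tested. Galnt3, which glycosylates and so protects the phosphate hormone FGF23, had 1.18 in the AF and −0.87 in the NP (2.05, SE 0.89). Centring ended its call (1.65), as did leaving out any of WT 32, 33, 53 and 55 and ank 34, 41 and 48, with values from 1.61 to 2.14.

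Recql, Aggf1 and Olfr1232, the other opposite genes lower in ank AF, kept the call without WT 33. Recql, a DNA helicase, measured 9.80, 9.42, 9.08, 10.84 and 10.06 in WT AF and 8.89, 9.41, 9.93, 8.84 and 7.73 in ank AF. In the NP it measured 9.14, 9.62, 9.0, 9.65 and 10.24 in WT and 9.91, 10.58, 10.08, 9.91 and 9.91 in ank. The tissue difference was −1.43 (SE 0.51), with −0.88 in the AF and 0.55 in the NP, and it held in all leave-outs (−1.67 to −1.16). The AF and NP levels of Recql lie close to each other in WT, so it is not among the genes high in the NP. Aggf1, an angiogenic factor, had −0.56 and 0.56 (−1.12, SE 0.44), was above background in 2 of 5 ank AF arrays, and lost the call without WT 59 (−0.97), ank 39 (−1.05) or ank 41 (−1.04). Olfr1232 (−1.43), also above background in 2 of 5 ank AF arrays, is an odorant receptor gene and so belongs to the genes that set the background. Its call was lost in 4 of 10 leave-outs, and Fmn1 (−1.11), Pip4k2a (−1.15) and A430005L14Rik (−1.13) lost the call in at least 4 of 10 leave-outs.

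Protein synthesis and protein handling differed between lists. Of 58 cytosolic ribosomal protein genes 6 met the thresholds (Rplp1, Rpl39, Rpl6, Rps15a, Rps21 and Rps29), all higher, against 4.75% of all genes tested, and the median was 0.81, with 0.66 in the AF and −0.13 in the NP. After centring the median was 0.41 with 3 at the thresholds, and within the spike-in set seen on both arrays it was −0.14. This list too lies high in the NP (median WT AF minus NP −2.48). Its tissue difference of 0.81 is no higher than the 0.84 of the group of all genes highest in the NP. Rplp1, a protein of the ribosomal stalk, had AF minus NP values of −3.45, −0.92, −4.01, −3.01 and −3.81 in WT and −2.84, −0.31, −2.19, −1.03 and 0.41 in ank (1.85, SE 0.73). WT 33 lay among the ank mice. It lost the call without WT 32, 53 or 59 or ank 34 or 48, down to 1.45.

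Of 28 proteasome genes only Psmd13 (2.15, SE 0.75), a subunit of the lid, met the thresholds, and it held in all leave-outs. Over all genes tested 4.93% met the thresholds, and the list counts in this paragraph are descriptions to be read against that share. The proteasome list's median of 0.28 turned to −0.12 after centring. The medians of 39 oxidative phosphorylation genes (0.27), 20 neddylation and cullin ligase genes (0.15), 27 TGF-beta and BMP genes (0.26) and 19 immediate early genes (0.21) lay below that of all genes and turned below 0 after centring, with 0, 2 (Eloc and Cops2), 1 (Acvr2a) and 0 genes at the thresholds. Since centring lowers every list's median by the same amount, the turn below 0 adds nothing to their place below all genes. Autophagy (9 genes, median 0.64) and the unfolded protein response (14 genes, 0.51) had 0. Retromer and sorting nexin genes (19, median 0.77) had Snx27 (1.25, SE 0.50), which recycles membrane proteins from endosomes, and its call was lost after centring (0.85). Glucocorticoid-induced genes (11, median 0.52) had Sgk1, a kinase that regulates ion transport, with 2.61 in the AF and 0.28 in the NP, and inherited neuropathy genes (8, median 0.90) had Pmp22, a myelin protein, with 2.18 and −0.13. They met the thresholds in 6 and 5 of 10 leave-outs. Among 11 circadian repressor and output genes Bhlhe41 met the thresholds (1.37, SE 0.62) and held in 2 of 10 leave-outs, down to 1.01. The list's median was 0.98 (0.57 after centring), with 10 of 11 members above 0. Nr1d1, a clock repressor, was lower in ank NP by 2.04 and in ank AF by 0.94 in the means. Its tissue difference of 1.11 (SE 0.89) did not pass, and it was −0.75 within the spike-in set seen on both arrays.

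**Figure D5:**
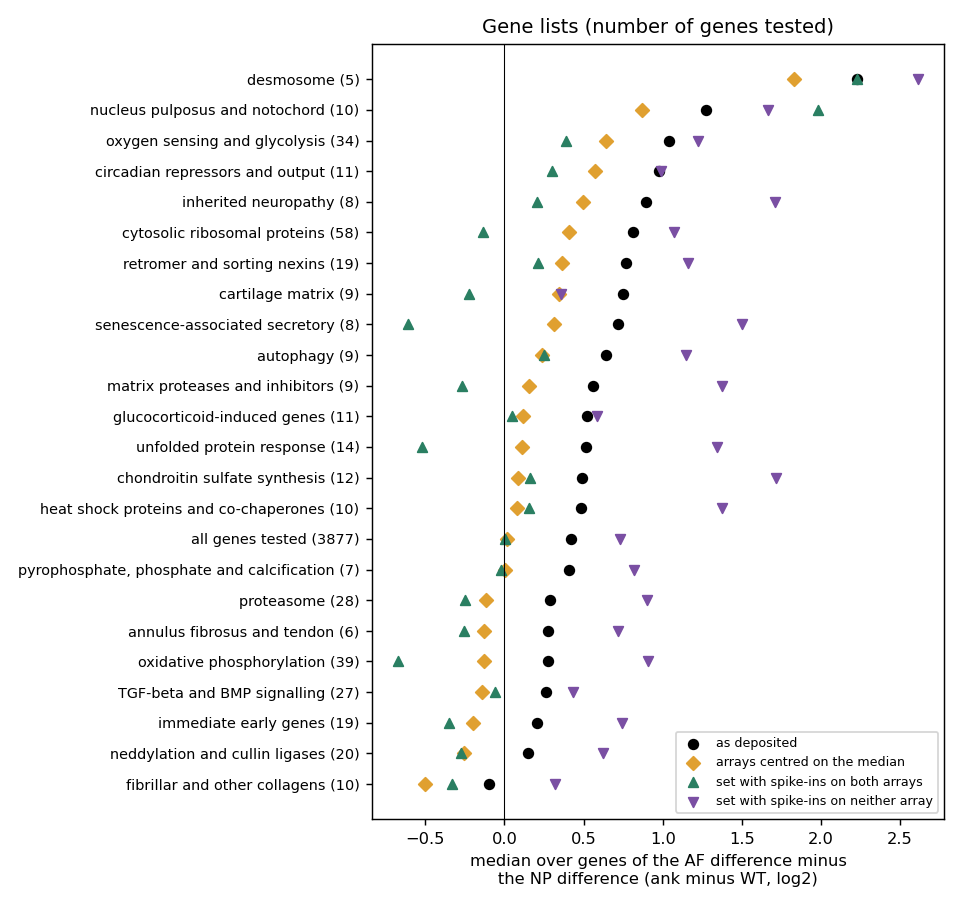
Median tissue difference (x axis, log2) of each gene list with at least 5 genes tested, with the number of genes in parentheses. Black circles are deposited values, diamonds centred arrays, and triangles the 2 spike-in sets: most lists lie higher in the set seen on neither array, where all genes have a median of 0.73, than in the set seen on both, where it is 0.00.

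The genes that the study discussed for these arrays, which were chosen there on the same samples, leaned the same way. The list holds 45 symbols, of which 41 were measured, 19 could be tested in both tissues and 11 met the thresholds: Dsc3, Egln3, Rab38, Galnt3, Pfkl, Rab12, P4ha2, Sparc, Eloc, Eif3m and Snx27. All 19 had a tissue difference above 0, with a median of 1.42. Rab38 and Rab12, small GTPases of vesicle traffic, show both kinds, as Rab38 (2.41, SE 0.95) differed in the AF by 2.15 and little in the NP, and Rab12 (1.79, SE 0.74) by 0.97 and −0.82. Rab38 lost the call without WT 33 (1.72), ank 34 (2.13), ank 41 (2.18) or ank 48 (1.92), and Rab12 without WT 32 (1.65), WT 53 (1.31), ank 34 (1.63) or ank 48 (1.27). The choice of these genes used the ank minus WT differences from which the tissue difference is made, so nothing is read from their shared direction. The genes nearest the p threshold were Srsf10 just inside, with a tissue difference of 1.38, and Ccndbp1 just outside, with 1.58.

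The overall distance between the tissues was also compared. The distance between the AF and the NP array of a mouse over the 3877 genes averaged 70.1 log2 units over the WT mice (SD 22.7, n = 5) and 64.4 over the ank mice (SD 16.8, n = 5), a difference of −5.76 (exact two-sided permutation test, p = 0.76). The sign turned without WT replicate 33, to 4.37.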

How the data were processed

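The deposited value table holds log2 signals, made by the authors with sst-rma in the Transcriptome Analysis Console from Clariom S scans. AF arrays lie lower than NP arrays, which may mean that each tissue had a normalization of its own, and an offset between tissues cancels in the difference described. Arrays have no read depth, and their number limits the precision.

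Of 28846 probe sets 19572 have 1 gene symbol in the platform annotation, none several, and the rest are unnamed here. Of several probe sets of a gene (55 genes) the brightest was used. Background was set on each array at percentile 95 of 1413 chemosensory receptor genes (odorant, pheromone, trace amine), in place of the detection calls that the labels name. AF minus NP per mouse was fitted with limma 3.58.1 in R 4.3.3 (lmFit, eBayes) on all 3877 genes, with Benjamini-Hochberg adjustment. The script was tested on simulated data. Single values were tested by exact permutation of 252 labellings. Figures used matplotlib 3.10.9 in Python 3.11.15.

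The 2 arrays of 1 mouse share its number, which pairs them: deviations from the group means correlated by a median of 0.157 within an animal (−0.186 to 0.679) and −0.016 between animals. Genes named in the report are, per direction, the 8 of smallest p, per opposite pattern the 6 largest, up to 4 of smallest p per list and those the study names; other names were chosen after their values were seen. Members beyond these 4 are named to account for each list's calls. The 34 gene lists were written from general knowledge, and members, lists and tests were chosen with earlier results of these data known. Alternatives covered scaling, filter, weights, covariates, spike-in sets, the animal block and each mouse left out.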

Additional observations from a re-analysis of the deposited data

Results flagged for a closer look

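At the unadjusted thresholds, 191 genes had an ank minus WT difference that differed between AF and NP, by the test of that difference itself, and none did after adjustment. Each genotype's AF minus NP values of the named genes were screened for a mouse far from the others, which chance alone gives in about 1 in 20 groups, and 2 of 78 groups had one, both times WT replicate 33. For Dsc3 AF minus NP was −8.56 in WT 33 and −5.86 to −5.08 in the other WT mice, and for Smpd3 it was 4.25 against 0.14 to 1.06.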

How the results depend on the processing

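The report gives the main counts (191 genes, 78 opposite, 0 after adjustment) with leave-outs, which ran from 63 to 526 genes and from 23 to 229 opposite genes, with 0 adjusted in each. Genes and opposite genes numbered 120 and 41 after quantile normalization, 346 and 137 with background in either tissue, 963 and 272 without a filter, 121 and 48 with 8 arrays, 899 and 180 with quality weights, 300 and 121 when the spike-in set entered as a block, 25 and 18 within the set with spike-ins on both arrays, 823 and 352 within that on neither, and 1091 and 437 without WT 33 and ank 31. Centring gave 51 opposite genes. Within the set with spike-ins on neither array 3 genes passed adjustment, Ctsk (4.37), Scd1 (4.50) and Cytl1 (−5.68), none of them among the 191. In alternatives chosen after seeing the data, centred arrays gave 48 and 23 within the first set, 547 and 256 within the second (1 adjusted, Cytl1), and, without WT 33, WT 53, ank 31, ank 34, ank 41 and ank 48 in turn, 382, 110, 355, 90, 98 and 69 genes, with 177, 33, 116, 26, 46 and 20 opposite. Pairing changed no call after adjustment: without the replicate block 174 genes (77 opposite) met the thresholds, and with it as a random effect 203 (87). A sex term gave 147, a control AUC term 226 and trend with robust fitting 159. For the distance between tissues, leave-outs ran from −11.6 to 4.37, and it was 0.21 without WT 33 and ank 31. Signs turned for Cry2 (−0.16, −0.19 centred), Nr1d1 (−0.75, −0.78) and Timp3 (−0.030, −0.064) within the set with spike-ins on both arrays, and for Me1 after centring, within the other set (−0.026) and without WT 33 (−0.33). The causes were not tested. Over the single genes named, alternatives other than those chosen after seeing the data kept the side of the threshold in 1145 cases, lost the call in 342, gained one in 29 and turned the sign in 3. Precision was limited by 5 mice a group, with a median SE of 0.62 over the genes tested.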
